A study of Mus musculus with 55 samples.

Results

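Receptors for the myeloid growth factors were examined through 10 genes, picked by symbol from a table of 55421 mouse genes. These were Csf1r, Csf2ra, Csf2rb, Csf2rb2, Csf3r, Il3ra, Il6ra, Il6st, Il4ra and Il1r1. All 10 were also found in a second table of 35975 genes. The rule that names them uses gene symbols alone, and none of the 10 encodes a protein on which the cells were sorted.

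RNA was sequenced from sorted bone marrow populations of C57BL/6 mice. The first set held 46 libraries, 22 from wild-type (WT) and 24 from Tet2-/- mice, in 6 populations: long-term and short-term hematopoietic stem cells (LT-HSC, ST-HSC), common myeloid progenitors (CMP), granulocyte-monocyte progenitors (GMP), megakaryocyte-erythroid progenitors (MEP) and common lymphoid progenitors (CLP). Each group had 4 libraries (replicates 2 to 5), except for WT LT-HSC and WT ST-HSC with 3 (replicates 2, 3 and 5). The second set held 9 libraries of LT-HSC, 3 each from WT, Sting-/- and Tet2;Sting double knockout (DKO) mice. Tet2-/- mice were Tet2 f/f;Mx1-Cre animals, in which Cre is switched on by the interferon-inducible Mx1 promoter. They received 5 doses of poly(I:C), an interferon inducer, from 4 weeks of age and were analysed 16 weeks later. DKO mice were Tet2 f/f;Sting-/-;Mx1-Cre with the same 5 doses, and Sting-/- mice lacked Sting from the germline. Whether WT mice received poly(I:C) is not given in the sources used here. By the labels, each library came from 200 sorted cells, while the study's methods give a larger number of cells per group. The study counts its replicates as mice. No label says which mouse a library came from, so the p-values are given as measuring the spread between these libraries.

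Myeloid growth factor receptors sit on progenitors and tell them which cytokine they can answer. The receptors for GM-CSF, IL-3 and IL-6 pair a ligand-binding alpha chain with a shared signalling chain, beta common (Csf2rb) or gp130 (Il6st), whereas the G-CSF receptor (Csf3r) works as a homodimer. These chains signal through Janus kinases and Stat proteins, whereas the M-CSF receptor (Csf1r) is itself a tyrosine kinase and the IL-1 receptor (Il1r1) signals through MyD88 and NF-kB. G-CSF drives granulocyte formation and M-CSF drives monocyte and macrophage formation.

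Libraries of the first set held 50458473 to 102148079 counts (median 70118187) and those of the second set 26776103 to 78681188 (median 40641362). Levels are given as CPM, a gene's counts divided by the library's effective size, which is its total times a TMM scaling factor. This factor was 0.546 to 0.709 in WT CLP, 0.736 to 1.08 in Tet2-/- CLP, 0.949 to 1.18 in the other libraries of the first set and 0.93 to 1.13 in the second, so WT CLP levels are higher on this scale than by the total. Tet2 counts were not lower in Tet2-/- libraries (6.10 to 72.7 CPM against 2.26 to 41.7 in WT), and Tmem173, which encodes Sting, reached 122 CPM in a Sting-/- library. A sum over a whole gene includes reads outside the deleted part, so neither value checks the genotype, which rests on the labels. Marker lists were at hand for 4 of the 6 populations, not for ST-HSC and CMP. The 7 GMP markers summed to 31873 to 46083 CPM in GMP and to at most 149 CPM in LT-HSC of the first set, and 7 MEP markers summed to 13398 to 19505 CPM in MEP. The 8 LT-HSC markers summed to 408 to 685 CPM in WT LT-HSC and to 406 to 452 CPM in WT ST-HSC, so this list did not separate the stem cell populations in WT. In Tet2-/- the sums were 582 to 799 CPM in LT-HSC and 310 to 562 CPM in ST-HSC, without overlap. The libraries labelled CLP stood apart. Their 6 CLP markers summed to 614 to 1277 CPM in WT and 466 to 2282 CPM in Tet2-/-, against at most 209 CPM in the other first-set libraries. The Il7r level in the libraries labelled CLP was 233 to 1105 CPM. But 5 B-cell markers, Ighm above all, summed to 146142 to 268921 CPM in the WT libraries. Rag1, alone of the CLP markers, was at 0 in all 4 of those. Their summed GMP markers ranged from 2.65 to 12453 CPM. The 5 lineage pairs with no CLP, the mean genotype difference and the interaction are therefore given with and without these 8 libraries. In bulk RNA, fewer cells of a type and less RNA per cell cannot be told apart.

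In WT mice most of the receptors had their highest level in GMP. Added up per kilobase of exon, so that genes of different length weigh alike, the 10 levels came to 84.4 CPM per kb in GMP, 27.1 in ST-HSC, 26.5 in CLP, 25.9 in CMP, 7.35 in LT-HSC and 1.46 in MEP. GMP had the highest mean of any population for Csf1r, Csf2ra, Csf2rb, Csf3r, Il3ra and Il6ra. Csf2rb2, Il6st and Il4ra had their highest mean in CLP, and Il1r1 in ST-HSC. The place of CLP depends on the scale and on 1 library. With CPM by the library total, a setting chosen after seeing the data, the WT CLP mean fell below that of GMP for Csf2rb2 (7.36 against 7.91 CPM) and Il4ra (16.4 against 24.7 CPM), and the summed level of CLP (17.5 CPM per kb) below that of CMP (28.9), while Il6st kept its highest mean in CLP. Without replicate 2 the WT CLP means of Csf2rb2 and Il4ra were 6.61 and 7.93 CPM on the first scale, below those of GMP (7.24 and 22.6 CPM). MEP had the lowest mean for 9 of the 10 genes, the exception being Csf1r, at 0 in LT-HSC, and by the total for 8, since Csf3r was then lower in CLP. Within WT GMP, Csf3r led with 34.7 CPM per kb, followed by Csf2ra with 14.5 and Csf1r with 12.6. Il6ra had 6.47, Csf2rb 5.29, Il3ra 3.96 and Il4ra 3.77 CPM per kb. Csf2rb2 (1.53), Il6st (1.2) and Il1r1 (0.495) came last.

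**Figure D1:**
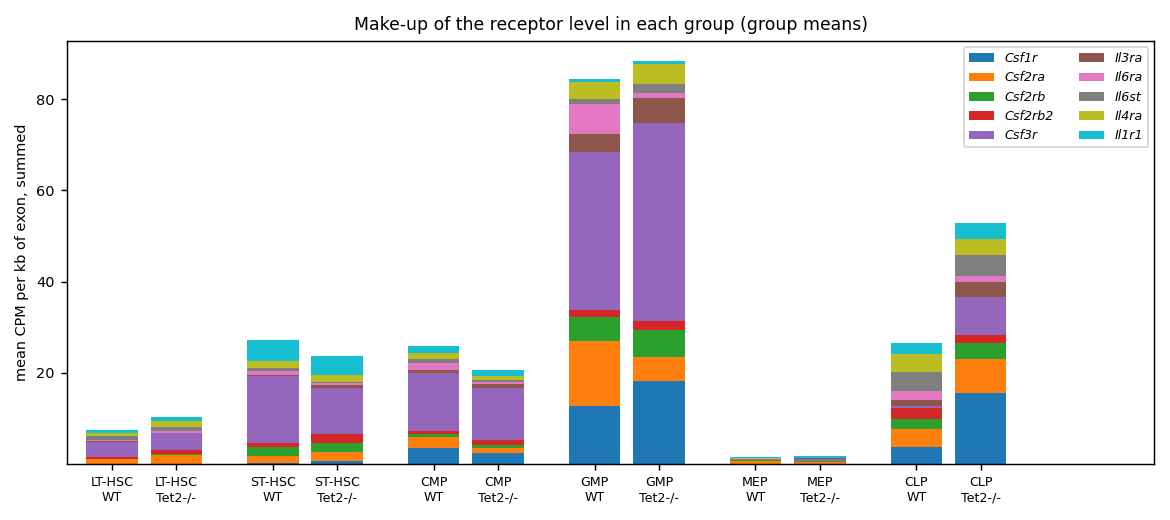
Stacked bars show the mean level of each of the 10 genes in CPM per kb of exon, summed, for each population and genotype. GMP bars reach 84.4 in WT and 88.5 in Tet2-/-, with Csf3r as the widest segment, and MEP bars reach 1.46 and 1.58.

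The lineage-defining receptors come first. Csf3r, the G-CSF receptor, lies on chromosome 4 from 126024550 to 126044440 on the plus strand (all coordinates are GRCm38). It was read at 124, 107, 103 and 167 CPM in the 4 WT GMP libraries, against 1.22, 0.0546, 1.64 and 0.0881 CPM in WT MEP. Every GMP library was thus far above every MEP library, and the ratio of the means was 167. WT ST-HSC already held Csf3r at 53.2, 56.1 and 51.6 CPM, close to the 42.5, 48.8, 46.4 and 44.6 CPM of WT CMP, whereas LT-HSC held 10.8, 18.3 and 6.63 CPM. The libraries of LT-HSC and ST-HSC did not overlap. In order, the WT means were GMP (125 ± 29.3, SD, n = 4), ST-HSC (53.6 ± 2.24, n = 3), CMP (45.6 ± 2.68), LT-HSC (11.9 ± 5.91), CLP (1.01 ± 2.01) and MEP (0.750 ± 0.802). In the fit of all 46 libraries, only LT-HSC and CLP of these neighbours differed beyond their spread (adjusted p = 0.0385, edgeR quasi-likelihood test with Benjamini-Hochberg adjustment, as for every adjusted p below unless another tool is named).

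Csf1r, the M-CSF receptor, lies on chromosome 18 from 61100598 to 61132149 on the plus strand. WT GMP held 73.4, 75.9, 52.2 and 88.9 CPM and WT CMP 16.1, 10.1, 33.1 and 20.7 CPM. Not a single count fell on Csf1r in the 3 WT LT-HSC libraries, and 1 count in all 4 WT MEP libraries together. WT ST-HSC held 2.19, 0.6 and 1.39 CPM, which puts the ST-HSC mean at least 32.5-fold above LT-HSC when each LT-HSC library is set at a floor of 3 counts. The order of WT means was GMP (72.6 ± 15.2), CLP (21.6 ± 34.8), CMP (20.02 ± 9.76), ST-HSC (1.39 ± 0.794), MEP and LT-HSC, and in the fit of all libraries only ST-HSC and MEP of these neighbours differed beyond their spread (adjusted p = 0.00377). The CLP mean rested on replicate 2 (4.53 CPM without it), and by the library total it was 14.9 CPM, below the 22.2 CPM of CMP. CMP and ST-HSC did not overlap, and without the CLP libraries their difference passed as well (adjusted p = 8.87e-05).

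The chains of the GM-CSF and IL-3 receptors form the next group. Csf2ra, the alpha chain that binds GM-CSF, lies on chromosome 19 from 61223957 to 61228429 on the minus strand. WT GMP held 37.5, 29.1, 36.8 and 62.7 CPM, and no other WT library of the first set exceeded 16.2 CPM. The mean was 41.5 ± 14.6 in GMP, 11.2 ± 4.29 in CLP, 6.70 ± 1.34 in CMP, 3.90 ± 2.25 in ST-HSC, 2.95 ± 1.32 in LT-HSC and 1.93 ± 0.673 in MEP, and in the same fit only GMP and CLP of these neighbours differed (adjusted p = 0.00839). By the library total the CLP mean fell below that of CMP. Il3ra, the alpha chain for IL-3 on chromosome 14 (14346275 to 14356011, plus strand), was read at 12.1, 13.5, 7.41 and 14.0 CPM in WT GMP. Elsewhere it was low: its means ran from 4.47 in CLP and 2.31 in CMP down to 0.294 CPM in MEP.

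The signalling chains Csf2rb and Csf2rb2 are near-identical copies on chromosome 15. Csf2rb (78325752 to 78353847, plus strand) encodes the beta chain common to the receptors for GM-CSF, IL-3 and IL-5, and Csf2rb2 (78282507 to 78305721, minus strand) encodes a beta chain, found in mice, that serves IL-3. They are 20030 bases apart. Their coding sequences agree at 2505 of 2631 aligned bases (95.2%), share a run of 242 bases, and share 11.3% of all windows of 100 bases, so reads from these stretches could have been given to either gene. A stretch of 60 coding bases in which they can be told apart follows, from coding base 304 to 363 of Csf2rb and 307 to 366 of Csf2rb2. Capitals mark the 13 positions that differ.
Csf2rb: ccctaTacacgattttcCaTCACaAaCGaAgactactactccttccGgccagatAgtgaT
Csf2rb2: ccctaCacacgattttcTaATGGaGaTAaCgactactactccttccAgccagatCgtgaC

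Csf2rb was read at 62.1, 40.0, 16.6 and 35.2 CPM in WT GMP and Csf2rb2 at 6.68, 13.3, 2.86 and 6.06 CPM. Csf2rb therefore took 75% (95% exact binomial interval 73.6 to 76.3%) to 90.3% (89.4 to 91.2%) of the counts of the pair in WT GMP, and 79.4 to 84.3% in Tet2-/- GMP. These are shares of raw counts, not of levels per length, and the exons of Csf2rb cover 7277 bases against 4740 for Csf2rb2. The intervals cover counting error only. Outside GMP the share ran from 2.66 to 100% between libraries of the first set. In WT ST-HSC, for instance, Csf2rb stood at 31.0, 12.3 and 0.776 CPM. Given that the copies share sequence, levels of the single genes are uncertain. Counting the pair as 1 gene changed no call on any other member between genotypes, in the WT lineage pairs or in the second set. The Tet2-/- lineage pairs, the mean genotype difference and the interaction were not refitted this way.

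The IL-6 receptor has an alpha chain, Il6ra (chromosome 3, 89864059 to 89913196, minus strand), and the signalling chain gp130, Il6st (chromosome 13, 112464070 to 112510086, plus strand), which also serves IL-11, LIF and oncostatin M. Il6ra followed the GMP pattern: WT GMP held 68.3, 66.2, 39.0 and 50.2 CPM, WT CMP 8.09, 8.62, 21.2 and 14.1 CPM, and the 4 WT MEP libraries 8 counts in all. The WT groups of GMP, CMP and MEP did not overlap. Il6st was flatter, with 14.7, 15.7, 10.4 and 12.4 CPM in WT GMP, 9.55, 9.66, 10.1 and 10.8 CPM in WT CMP and 4.89, 14.7 and 8.16 CPM in WT LT-HSC. Only MEP lacked it, with 21 counts over 4 libraries, and in the fit of all 46 libraries the step from ST-HSC to MEP was beyond the spread (adjusted p = 8.58e-06). So was that from LT-HSC to MEP for Il6ra (adjusted p = 0.00557).

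Il4ra, the alpha chain for IL-4 (chromosome 7, 125552120 to 125579474, plus strand), was read at 24.8, 26.2, 13.2 and 26.2 CPM in WT GMP and at 71.6, 17.8, 0 and 5.96 CPM in WT CLP. The CLP libraries thus spanned the GMP values. Il1r1 (chromosome 1, 40225080 to 40317257, plus strand) departed from the others: WT ST-HSC held 31.0, 38.7 and 18.8 CPM, LT-HSC 3.44, 5.72 and 3.93 CPM and GMP 5.31, 3.47, 1.77 and 2.05 CPM. Its ST-HSC libraries overlapped neither those of LT-HSC nor those of GMP. The ST-HSC mean (29.5 ± 10.0) was 6.76 times that of LT-HSC.

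**Figure D2:**
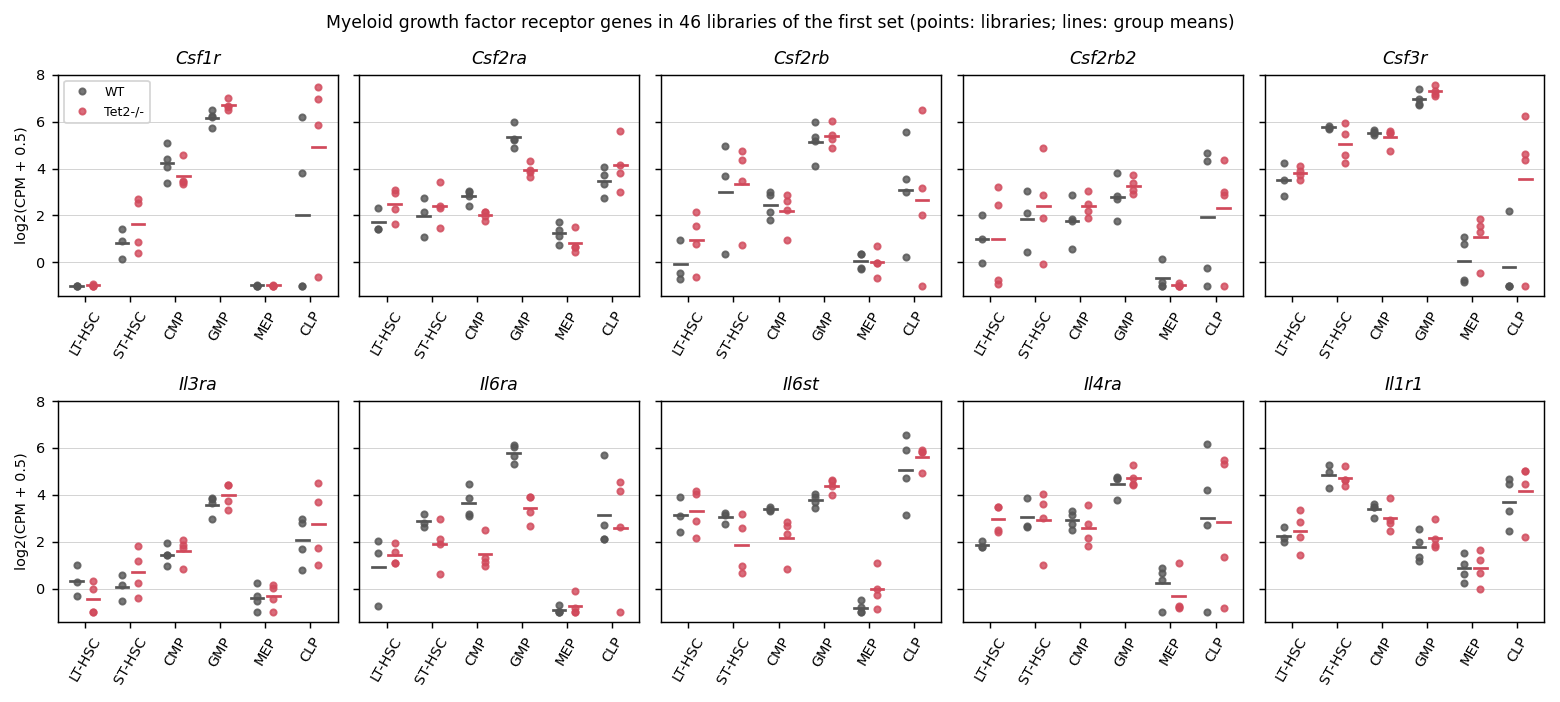
Each panel plots 1 gene as log2(CPM + 0.5) over the 6 populations, with a point per library (WT and Tet2-/- side by side) and a line at each group mean. MEP points lie at or near the floor for Csf1r and Il6ra, GMP points lie highest for Csf3r, and the libraries labelled CLP scatter most.

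Lineage steps were tested in 1 fit of all 46 libraries, with a gene called when its adjusted p was below 0.05 and it changed at least 2-fold. The widest contrast was GMP against MEP. In WT, 9 of the 10 genes were called, all higher in GMP, and 12% of all genes tested were called in either direction, as in every such share below. In Tet2-/- again 9 of 10 were called, all higher (14.8% of all genes). The gene not called was Il1r1 in both (log2 fold change 1.13, adjusted p = 0.183 in WT). The median log2 fold change of the 10 was 5.63 in WT and 5.94 in Tet2-/-, against 0.13 and 0.17 over all genes. As single values, Csf3r had a WT log2 fold change of 7.33 (adjusted p = 0.000293), Csf2ra of 4.41 (2.65e-07) and Il6st of 7.0 (1.47e-06). Csf2rb2 (adjusted p = 0.04) lost its WT call when the libraries of replicate 3, 4 or 5 were left out (0.221, 0.0944 and 0.111) or the filter on low counts was (0.0568), Il4ra when those of 2, 3 or 5 were (0.0642, 0.0914 and 0.0649), and Il3ra when those of 3 were (0.0536).

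MEP against CMP gave 6 genes lower in WT (4.88% of all genes called) and 5 lower in Tet2-/- (3.58%). All 10 had an unadjusted p below 0.05 in both genotypes, as did 4247 of 22360 genes over all in WT and 3788 in Tet2-/-. The medians of the 10 were -3.67 and -3.29. Il6st fell most clearly in WT, by 6.59 on the log2 scale (SE 0.962, adjusted p = 7.25e-06), with Csf1r (-9.31), Il6ra (-7.86), Csf3r (-5.87), Il1r1 (-2.81) and Csf2ra (-1.77) beside it. For Csf1r and Il6ra the size of the fitted fold depends on the few counts in MEP. In Tet2-/- the called genes were Csf1r, Csf2rb2, Csf3r, Il1r1 and Il6st. Leaving out the WT libraries of replicate 2, 3 or 5 ended the Csf2ra call (adjusted p = 0.214, 0.132 and 0.114), and several of the Tet2-/- calls were as fragile: those of Csf2rb2, Csf3r and Il6st ended without the libraries of replicate 3, 4 or 5, and that of Il1r1 without those of 4. With the replicate number as a block, which pairs these libraries, the Tet2-/- call of Il6st was lost too (log2 fold change -2.78, adjusted p = 0.0602), as it was in a fit of the 2 groups alone (0.0695). Without the filter on low counts, those of Csf3r and Il6st ended (0.0519 and 0.0551).

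GMP against CMP, the step at which granulocyte-monocyte fate is taken, gave 1 call in each genotype (1.97% of all genes in WT and 3.6% in Tet2-/-). It was Csf2ra both times, higher in GMP by 2.63 on the log2 scale in WT (SE 0.52, adjusted p = 0.00218) and by 2.06 in Tet2-/- (SE 0.508, adjusted p = 0.0103, or 0.112 without the libraries of replicate 5). The ratio of group means was 6.20 in WT and 4.21 in Tet2-/-. CMP against ST-HSC gave 0 calls in WT (3.04% of all genes) and 0 in Tet2-/- (3.7%). An unadjusted p below 0.05 was found for 2 members in WT, where 3953 of 22360 genes had one, and for 1 in Tet2-/- (4401 genes). DESeq2 called 2 members in WT, among 2432 of 22360 genes, and 1 in Tet2-/-, among 2261 genes. ST-HSC against LT-HSC gave 0 calls in WT (0.0939% of all genes) and 1 in Tet2-/- (0.183%). In WT, 3 members, Csf1r, Csf2rb and Il1r1, had an unadjusted p below 0.05, as did 1794 of 22360 genes over all. All 3 were called by DESeq2, which called 1135 of 22360 genes against 21 by edgeR. The gene called in Tet2-/- was Csf1r, at 5.30, 6.06, 0.807 and 1.34 CPM in Tet2-/- ST-HSC and 2 counts in all in Tet2-/- LT-HSC (adjusted p = 0.0262). The call ended when the Tet2-/- libraries of any 1 replicate number were left out (adjusted p = 0.113 to 0.304), and in a fit of the 2 groups alone (0.0965).

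All groups share 1 estimate of the spread in this fit, the 8 libraries labelled CLP included. Without them, a setting chosen after seeing the data, the 5 pairs that hold no CLP gave 27 calls in WT in place of 16 and 28 in Tet2-/- in place of 16. In ST-HSC against LT-HSC, 3 members were then called in WT (0.658% of all genes) and 2 in Tet2-/- (0.939%), all higher in ST-HSC. They were Csf1r (log2 fold change 5.74, adjusted p = 2.08e-05), Il1r1 (2.77, 0.0109) and Csf2rb (4.61, 0.0407) in WT and Csf1r (6.70, 1.65e-07) and Il1r1 (2.25, 0.0128) in Tet2-/-. For Csf1r the size of the fitted fold depends on the few counts in LT-HSC, 0 in WT and 2 in all in Tet2-/-. In CMP against ST-HSC, Csf1r was higher and Il1r1 lower in CMP in both genotypes (8.61% of all genes in WT and 10.1% in Tet2-/-), by 3.84 and -1.53 in WT (adjusted p = 8.87e-05 and 0.0426) and by 1.95 and -1.73 in Tet2-/- (0.00912 and 0.0122). In GMP against CMP, 4 members were called in WT (6.45%) and 5 in Tet2-/- (9.3%): Csf1r (1.87, adjusted p = 0.0154 in WT), Csf2ra and Csf2rb (2.86, 0.0365) higher in both, Il1r1 lower in WT (-1.66, 0.0209), and Csf3r (1.97, 0.0184) and Il6st (2.21, 0.0463) higher in Tet2-/-. All members but Il3ra were then called lower in MEP than in CMP in both genotypes (10.2% and 8.07% of all genes). In GMP against MEP, 9 were called in WT (19.7%) and 10 in Tet2-/- (23.2%), all higher in GMP.

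The next 2 contrasts rest on the libraries labelled CLP. CLP against ST-HSC gave 3 genes higher and 1 lower in WT, where 20% of all genes were called, and 3 higher in Tet2-/- (19.6%). Higher in both were Csf1r, Csf2ra and Il6st, and the gene lower in WT was Csf3r, at 0 counts in 3 of the 4 WT CLP libraries. Csf1r had an adjusted p of 0.04998 in WT, lost without replicate 2, 3 or 5 (0.402, 0.185 and 0.0916), and those replicates each ended the WT call of Il6st too (0.211, 0.136 and 0.128). The WT call of Csf2ra ended without any 1 replicate (0.0552 to 0.176). Without the filter on low counts, the WT calls of Csf1r, Csf2ra and Il6st all ended (0.0741, 0.0735 and 0.057). In Tet2-/-, Csf1r was lost without replicate 3, 4 or 5 (0.0793, 0.0805 and 0.0516) and Csf2ra without replicate 3 (0.16). GMP against CLP gave Csf2ra and Csf3r higher and Il1r1 lower in WT (15.8% of all genes), and Il1r1 lower in Tet2-/- (9.45%). The step in Csf3r was from 0, 0, 0 and 4.03 CPM in WT CLP to at least 103 CPM in WT GMP (adjusted p = 0.000564). Csf2ra was lost in WT without replicate 4 or 5 (0.0534 and 0.114), and Il1r1 in WT without replicate 4 (0.068) and in Tet2-/- without replicate 2 (0.0637). In a fit of the 2 groups alone, all 4 WT calls in CLP against ST-HSC ended, with adjusted p-values of 0.456 for Csf1r, 0.325 for Csf2ra, 0.173 for Csf3r and 0.0748 for Il6st. In Tet2-/- that fit ended the calls of Csf1r (0.106) and Csf2ra (0.209) and kept Il6st (0.0269). In GMP against CLP it ended the call of Il1r1 in both genotypes (0.0582 in WT and 0.105 in Tet2-/-) and kept those of Csf2ra (0.0242) and Csf3r (0.0458) in WT.

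The question put to the Tet2-/- libraries was whether loss of Tet2, an enzyme that oxidises 5-methylcytosine in DNA, changed these receptors within a population. Il6ra in GMP and CMP and Csf2ra in GMP were lower in Tet2-/-. In GMP, 2 of the 10 genes were called lower and none higher, with 4.37% of all genes called. In CMP, 1 was called lower and none higher (4.57%). Most calls over all genes were lower too, 672 of 723 in GMP and 629 of 734 in CMP. Of 623 genes called lower in CMP and tested in GMP, 341 were called lower in both. No member was called in LT-HSC (0.0245% of all genes; 1 of 9 tested members at an unadjusted p below 0.05), ST-HSC (0.0185%; 0 of 10), MEP (4.36%; 0 of 7) or CLP (0.00766%; 0 of 10). Over all genes, 843 of 16351, 994 of 16212, 2448 of 14934 and 477 of 13060 had such an unadjusted p. DESeq2 called the same 3 differences, among 902 of 16563 genes in GMP and 968 of 16047 in CMP, and none in those 4 populations (893 of 14934 genes in MEP). These fits hold only the libraries of 1 population. With all 46 libraries sharing 1 spread, none of the 3 was called (adjusted p = 0.995 for Il6ra and 0.294 for Csf2ra in GMP and 0.549 for Il6ra in CMP), nor with all but the CLP libraries (0.278, 0.0703 and 0.183). Csf1r in LT-HSC and Csf1r, Csf2rb2 and Il6ra in MEP had too few counts to be tested.

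Of the 10 genes, Il6ra had the lowest Tet2-/- level relative to WT in both GMP and CMP. In GMP the Tet2-/- libraries held 14.6, 5.86, 14.4 and 9.16 CPM against 68.3, 66.2, 39.0 and 50.2 CPM in WT. The highest Tet2-/- library was below the lowest WT library, and the WT mean was 5.08 times the Tet2-/- mean (log2 fold change -2.37, SE 0.296, adjusted p = 0.000417; exact permutation p = 0.0286, the smallest that 4 against 4 allows, two-sided). In CMP the values were 5.09, 1.48, 1.95 and 1.70 CPM against 8.09, 8.62, 21.2 and 14.1 CPM in WT. Again the groups did not overlap, with a ratio of 5.09 (log2 fold change -2.35, SE 0.498, adjusted p = 0.0215). The CMP call was less firm: it was lost without WT replicate 4 (adjusted p = 0.0671) or 5 (0.0599) and without Tet2-/- replicate 3 (0.0584), 4 (0.0663) or 5 (0.0713). With the replicate number as a block it was lost as well. The Tet2-/- GMP libraries overlapped the WT CMP libraries (means 11.0 ± 4.26 and 13.0 ± 6.11 CPM).

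Csf2ra in GMP stood at 14.0, 14.7, 11.9 and 19.3 CPM in Tet2-/- and 37.5, 29.1, 36.8 and 62.7 CPM in WT. The groups were fully apart and the WT mean was 2.77 times that of Tet2-/- (log2 fold change -1.51, SE 0.238, adjusted p = 0.0023; exact permutation p = 0.0286). The CMP libraries also did not overlap, at 3.48, 3.92, 3.91 and 2.90 CPM against 7.57, 6.67, 4.82 and 7.74 CPM, but the difference did not pass (log2 fold change -0.92, SE 0.278, adjusted p = 0.0898). No such gap was seen in LT-HSC, where Tet2-/- libraries held 4.33, 7.99, 2.60 and 7.26 CPM and WT libraries 2.16, 4.47 and 2.21 CPM.

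Il6st, the partner of Il6ra, did not pass in either population. Tet2-/- CMP held 5.83, 4.56, 1.30 and 6.75 CPM, all below the 4 WT libraries at 9.55 to 10.8 CPM (log2 fold change -1.12, SE 0.439, adjusted p = 0.194; exact permutation p = 0.0286). In GMP the sign was the other: 15.3, 23.6, 24.3 and 20.2 CPM against 14.7, 15.7, 10.4 and 12.4 CPM (log2 fold change 0.61, SE 0.198, adjusted p = 0.109), with the groups overlapping by 1 library. Csf1r in GMP was read at 100.02, 129, 90.6 and 98.5 CPM in Tet2-/- and 73.4, 75.9, 52.2 and 88.9 CPM in WT. Its groups did not overlap, yet the difference of 0.49 (SE 0.161, adjusted p = 0.114) missed both limits. In CMP Csf1r had the other sign, at 9.50, 23.1, 10.5 and 10.3 CPM against 16.1, 10.1, 33.1 and 20.7 CPM, with overlap (-0.60, SE 0.413, adjusted p = 0.506). These permutation p-values are single values, not adjusted over the genes and populations looked at.

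Csf3r, the most abundant of the receptors in GMP, had 136, 191, 146 and 157 CPM in Tet2-/- GMP and 124, 107, 103 and 167 CPM in WT (log2 fold change 0.29, SE 0.161, adjusted p = 0.408). The groups overlapped, as they did in CMP (44.6, 45.6, 48.4 and 26.3 CPM against 42.5 to 48.8 CPM; -0.16, SE 0.190, adjusted p = 0.74). The other 5 genes had log2 fold changes between 0.15 and 0.42 in GMP and between -0.32 and 0.54 in CMP, with overlapping libraries. In GMP, then, the sum over the 10 genes was 88.5 CPM per kb in Tet2-/- and 84.4 in WT, with a smaller part of it from Il6ra and Csf2ra: Csf2ra had 5.21 CPM per kb against 14.5, Il6ra 1.27 against 6.47, Csf3r 43.6 against 34.7 and Csf1r 18.1 against 12.6.

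**Figure D3:**
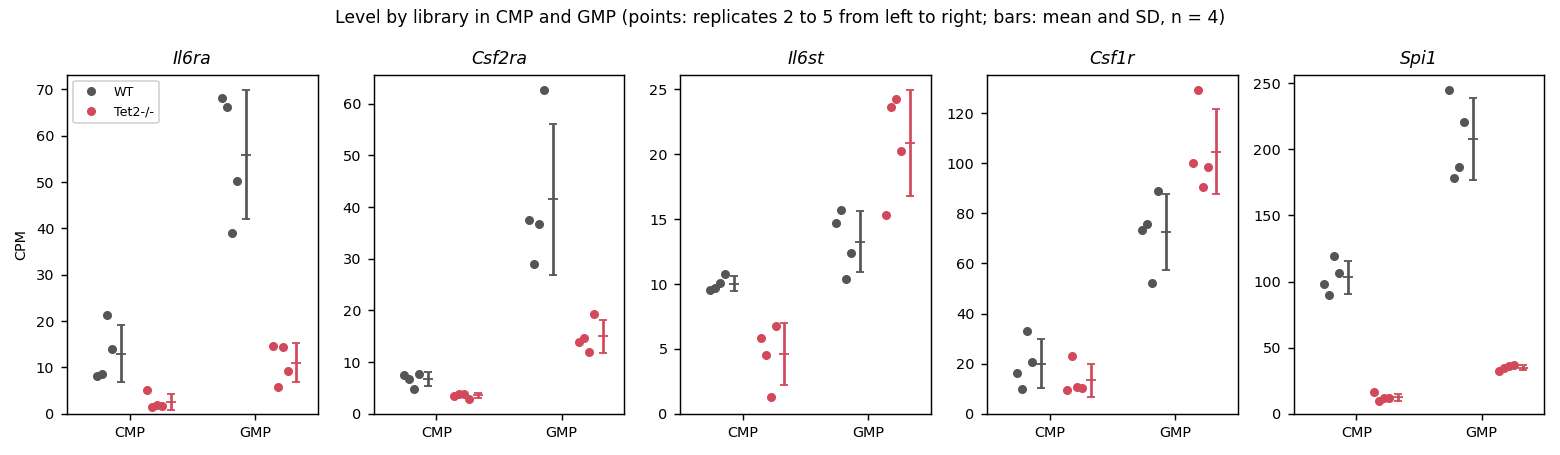
Points give the CPM of each library in CMP and GMP for Il6ra, Csf2ra, Il6st, Csf1r and Spi1, with WT and Tet2-/- side by side and bars for mean and SD (n = 4). Il6ra, Csf2ra and Spi1 have every Tet2-/- GMP library below every WT GMP library, whereas the Csf1r Tet2-/- GMP libraries lie at 90.6 CPM or more, above the WT libraries.

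**Figure D4:**
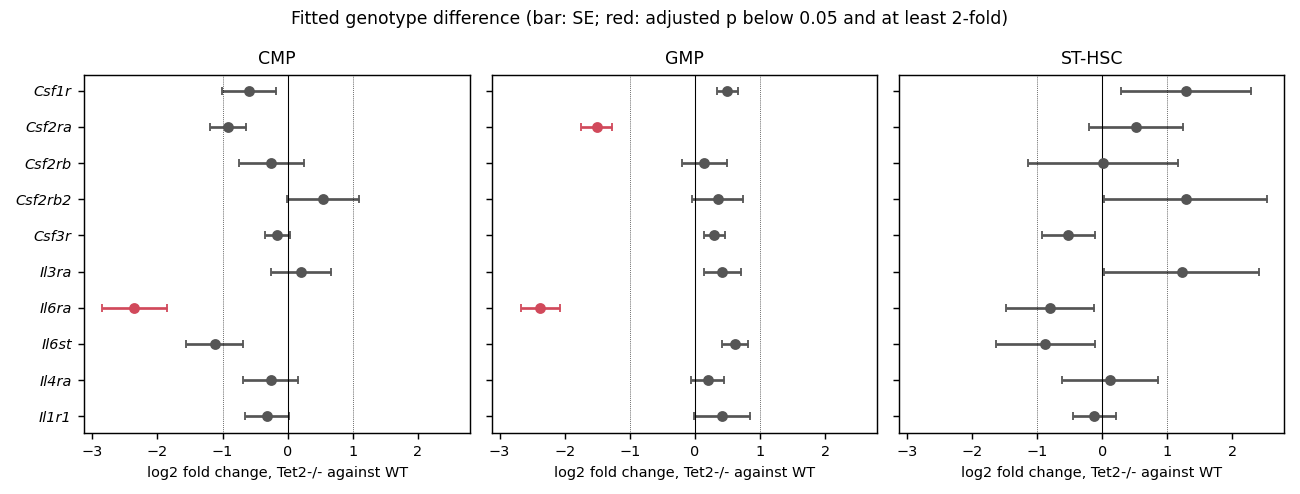
Fitted log2 fold changes of Tet2-/- against WT for the 10 genes in CMP, GMP and ST-HSC, with bars for the SE and called genes in red. Il6ra at -2.35 in CMP and Il6ra at -2.37 and Csf2ra at -1.51 in GMP are the 3 red points, and the ST-HSC bars are wide, up to an SE of 1.25.

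No member was called in stem cells. In LT-HSC, Il4ra was read at 5.14, 10.5, 10.6 and 4.85 CPM in Tet2-/- and 3.58, 2.94 and 2.93 CPM in WT, without overlap (log2 fold change 1.30, SE 0.535, adjusted p = 0.903; exact permutation p = 0.0571). The other 8 tested members had unadjusted p-values of 0.19 or more. In ST-HSC, Csf3r stood at 61.0, 23.2, 18.1 and 44.0 CPM in Tet2-/-, of which 1 library lies above and 3 below the 51.6 to 56.1 CPM of WT (log2 fold change -0.52, SE 0.410), and Il1r1 at 37.3, 20.1, 24.6 and 24.2 CPM against 31.0, 38.7 and 18.8 CPM (-0.12, SE 0.338). In MEP every one of the 7 tested members stayed below 4 CPM in every library, and the fitted values past 2-fold were those of Il6st (2.64, SE 1.35, adjusted p = 0.389), with 216 counts in Tet2-/- and 21 in WT and a call (2.69, 0.0396, among 661 of 21736 genes) in the fit of all libraries but CLP, and Csf3r (1.31, SE 1.11, adjusted p = 0.671), with 588 and 196.

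In the 3 libraries labelled CLP whose GMP markers summed to 28.4 CPM or less, Csf1r was at 0.154 CPM or less. Csf1r was at 72.9, 13.6, 0 and 0 CPM in WT replicates 2 to 5 and at 0.154, 177, 123 and 57.7 CPM in the Tet2-/- ones. Mpo, the myeloperoxidase gene and a GMP marker, was at 1807, 739, 2.61 and 27.5 CPM and at 1.69, 7173, 1610 and 2300 CPM. Csf3r was at 0, 0, 0 and 4.03 CPM against 0, 75.4, 24.4 and 20.3 CPM. The 3 Tet2-/- libraries with Csf3r were those with the most Mpo of that genotype, while the WT library with 1807 CPM of Mpo had no count of Csf3r. Il6st did not follow the markers: it was at 56.8 CPM in Tet2-/- replicate 2 and 59.1 CPM in WT replicate 5, where the 7 GMP markers summed to only 2.65 and 28.4 CPM. The fitted difference of Csf3r between genotypes was 4.81 (SE 2.88, adjusted p = 1). With all 46 libraries in 1 fit it was called (4.80, adjusted p = 0.0166), among 1477 of 22360 genes in place of 1, and what part the GMP markers have in it was not tested. Other lists moved with the genotype here. The 5 B-cell markers summed to 674 to 131979 CPM in Tet2-/- and to 146142 to 268921 CPM in WT, and 5 dendritic cell markers to 1568 to 1864 CPM and 2674 to 3857 CPM. Neither list overlapped between the genotypes, and their part in the levels of the receptors was not tested.

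**Figure D5:**
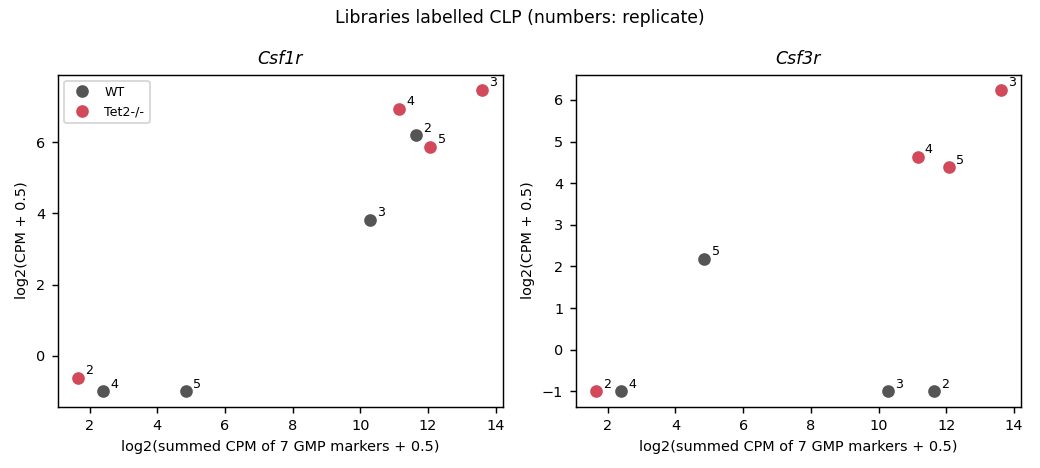
For the 8 libraries labelled CLP, the level of each plotted receptor, as log2(CPM + 0.5), is set against the summed level of 7 GMP markers on the same log2 scale, with the replicate number beside each point. Tet2-/- replicate 3, with the highest marker sum (12453 CPM), also has the highest Csf1r (177 CPM) and Csf3r (75.4 CPM), and Tet2-/- replicate 2, with the lowest sum (2.65 CPM), has 0.154 and 0 CPM of them.

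Several other measures moved with the genotype in CMP and GMP. In CMP the 7 MEP markers summed to 2938 to 5790 CPM in Tet2-/- and to 702 to 1701 CPM in WT, with Car1 (log2 fold change 2.03) and Epor (1.03) called higher and Klf1 (-1.51) lower, and 4 of the 7 not called. The 7 GMP markers in CMP summed to 3494 to 3816 CPM against 3804 to 5308 CPM, with 0 of 7 called. In GMP the same sum was 36737 to 46083 CPM against 31873 to 43965 CPM, again with 0 of 7 called, and 8 monocyte and macrophage markers gave 0 calls among the 5 tested. The MEP markers in GMP summed to 174 to 194 CPM in Tet2-/- and 102.3 to 124.7 CPM in WT, without overlap, and 1 of the 7, Itga2b, was called higher (1.12). Among the other lists, the B-cell markers in CMP summed to 101.1 to 122.9 CPM in Tet2-/- and 163 to 231 CPM in WT, with Ighm called lower (-1.03), and the dendritic cell markers to 31.3 to 52.0 CPM and 52.8 to 59.4 CPM, with 0 of 4 called. The LT-HSC markers in GMP summed to 21.2 to 24.9 CPM in Tet2-/- and 13.5 to 18.1 CPM in WT, with 0 of 7 called. These 3 sums did not overlap between the genotypes, nor, by the library total, did the monocyte and macrophage markers in CMP or the B-cell markers in GMP. What part these marker shifts have in the differences of Il6ra and Csf2ra was not tested.

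Base composition moved with it too. Among genes whose first 200 transcript bases had 70 to 80% G and C, 13.5% (390 of 2879) were called lower in Tet2-/- GMP, against 1.12% of genes under 50%. In CMP the values were 11.0% and 1.14%. The share did not rise throughout: among genes with 80% or more it was 4.64% in GMP and 2.59% in CMP. This content was 74.5% for Il6ra, 73.5% for Il6st and 64.5% for Csf2ra and Il4ra, and from 48.5% (Il1r1) to 62.5% (Csf1r) for the other 6. With each library's trend over GC content taken off, Il6ra stayed called in GMP (log2 fold change -2.14, adjusted p = 0.00094) and CMP (-2.05, 0.0389), and Csf2ra in GMP (-1.54, 0.00189). The correction was chosen after seeing the data. It takes off the typical shift at a given GC content, so it could not remove a larger shift in a part of those genes. The median log2 fold change of genes with 70 to 80% was -0.13 in GMP and -0.24 in CMP. What part base composition has in the differences of Il6ra and Csf2ra was not tested.

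Since Tet2 acts on methylated CG dinucleotides, the sequence just before the start of the receptors with a call is shown, with Csf3r, abundant in GMP and not called, as a contrast. Sequences are from RefSeq on GRCm38.p6, 5′ to 3′ on the strand of the gene, with every CG in capitals, and bases inside the gene's own exons are left out. Il6ra is chr3:89913197-89913446 on the minus strand (250 bases), Csf2ra chr19:61228430-61228668 on the minus strand (239 bases) and Csf3r chr4:126024409-126024549 on the plus strand (141 bases).
Il6ra: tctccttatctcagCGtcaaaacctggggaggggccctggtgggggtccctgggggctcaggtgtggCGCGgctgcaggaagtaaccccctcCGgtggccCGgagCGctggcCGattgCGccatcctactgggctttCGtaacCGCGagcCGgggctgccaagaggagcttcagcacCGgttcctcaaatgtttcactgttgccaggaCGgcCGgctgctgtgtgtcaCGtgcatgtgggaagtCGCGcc
Csf2ra: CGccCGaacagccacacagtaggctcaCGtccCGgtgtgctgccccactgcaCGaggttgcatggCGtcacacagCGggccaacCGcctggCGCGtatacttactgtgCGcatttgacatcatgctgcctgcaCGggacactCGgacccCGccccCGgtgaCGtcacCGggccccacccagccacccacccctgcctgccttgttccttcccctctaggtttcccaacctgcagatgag
Csf3r: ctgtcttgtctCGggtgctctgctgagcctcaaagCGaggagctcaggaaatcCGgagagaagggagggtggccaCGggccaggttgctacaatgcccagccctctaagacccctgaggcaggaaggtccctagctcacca

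In the 250 bases before the RefSeq start, Il6ra had 18 CG, Csf2ra 17 and Csf3r 6, against a median of 6 (quartiles 2 and 16) over 32851 promoters. Of the 8 members with a promoter in the table, Il3ra (27), Il6st (26) and Il4ra (17) had as many CG as Csf2ra or more, Csf2rb2 had 3, and the 2 promoters of Il1r1 had 3 and 7. The Il6ra stretch lies within an exon of Gm42809, an antisense noncoding gene, and without strand the reads of an overlapping pair cannot be told apart. Gm42809 had at most 11 raw counts in a WT GMP library, where Il6ra had 2846 to 4940. It had 4 to 63 in WT CMP, where Il6ra had 544 to 1679, and up to 118 in WT LT-HSC, where Il6ra had 8 to 206. Summed over a group, Gm42809 had 8 counts in Tet2-/- GMP and 24 in WT, and 5 in Tet2-/- CMP and 97 in WT. Il6ra had 3559 and 15971 in GMP, and 987 and 3978 in CMP. The core GAGGAA, a site bound by PU.1, was found on either strand in 23.3% of promoters. It occurred 2 times in Csf2ra and 1 time each in Csf3r, Csf2rb2 and Il6ra, with none in Il3ra, Il6st, Il4ra and Il1r1. The matches of Csf2ra and Csf3r reach into or lie in exon bases that are left out of the stretches printed above. TTGCGNAA, a C/EBP site, was found in 0.67% of promoters and in none of the members. A match in these windows is a description of the letters only.

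Across the populations, 0 members were called for a mean genotype difference (3.49% of all genes called). Csf3r had an unadjusted p of 0.0393 (mean log2 fold change 0.99, SE 0.47, adjusted p = 0.252). It rested on the libraries labelled CLP: without them it was 0.25 (SE 0.258, adjusted p = 0.737), and without the WT libraries of replicate 5, among them the only WT CLP library with any Csf3r, it was 1.79 (adjusted p = 0.00785). DESeq2 called 1 member here, Csf1r, among 2563 of 22360 genes. Whether the genotype difference varied between populations was tested by an interaction term, with 0 members called (2.65% of all genes). The unadjusted p was 0.00566 for Csf2ra (adjusted 0.122), 0.0203 for Il6st (0.236) and 0.0392 for Csf3r (0.319), and DESeq2 called Csf2ra and Il6st (adjusted p = 0.0185 and 0.0319) among 1307 of 22360 genes. The difference of Il6ra was not shown to vary (adjusted p = 0.571). Without the libraries labelled CLP the interaction again gave 0 members, with unadjusted p-values of 0.00331 for Csf2ra (adjusted 0.0975), 0.00868 for Il6st (0.174), 0.0142 for Il6ra (0.224) and 0.247 for Csf3r (0.678).

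The genes around the receptors were followed in lists drawn from textbook pathways and chosen with earlier results of these data known. Of 17 ligands, 7 could be tested in CMP and 8 in GMP, and the only call was Osm, oncostatin M, lower in Tet2-/- CMP (log2 fold change -1.57, SE 0.245, adjusted p = 0.00448). Its levels were 18.7 to 35.4 CPM in Tet2-/- and 59.2 to 108 CPM in WT. Of 12 partner and related receptor chains, Il1r2, the decoy receptor for IL-1, was lower in Tet2-/- CMP (8 tested), with 0 to 0.109 CPM against 3.05 to 11.0 CPM (adjusted p = 0.0105). Of 12 other hematopoietic receptors (9 tested in CMP and in GMP), Epor, the erythropoietin receptor, was higher in Tet2-/- CMP (1.03, adjusted p = 0.0222), and Kit, the stem cell factor receptor on which the cells were sorted, was at 299 to 332 CPM in Tet2-/- GMP against 194 to 259 CPM, below the 2-fold limit (0.45, adjusted p = 0.0182).

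Of 26 genes for Janus kinases, Stats and adaptors (25 tested in MEP), 1 was called in each of CMP, GMP and MEP. It was Ptpn11, the phosphatase SHP2, lower by 1.14, 1.23 and 1.24 on the log2 scale (adjusted p = 0.0161, 0.00985 and 0.0202). Of 17 feedback and target genes, 2 of 17 tested were lower in CMP, 4 of 17 in GMP and 4 of 16 in MEP and none higher. Over all genes 4.57%, 4.37% and 4.36% were called, and 629 of those 734 calls in CMP, 672 of 723 in GMP and 629 of 651 in MEP were lower. The list had medians of -0.76, -0.44 and -0.55. In CMP the called genes were Junb, an AP-1 component (-2.27, adjusted p = 0.00258), and Nfkbia, an inhibitor of NF-kB (-1.32, 0.0128). In GMP they included Pim1, a kinase gene induced by Stat5 (-2.90, 0.00265), Tnfaip3, the NF-kB feedback gene A20 (-2.78, 0.000315), and Nfkbiz (-2.15, 0.00299), and in MEP Junb (-2.68, 0.00753), Tnfaip3 (-2.13, 0.0232) and Nfkbiz (-2.08, 0.0114). The medians over all genes tested were 0.03, 0.03 and 0.05.

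Of 10 myeloid transcription factors (7 tested in MEP), only Spi1, which encodes PU.1, was called. It was lower in Tet2-/- by 3.08 in CMP (SE 0.191, adjusted p = 2.89e-05), 2.61 in GMP (SE 0.125, adjusted p = 1.19e-06) and 3.45 in MEP (SE 0.496, adjusted p = 0.003) on the log2 scale. In GMP its libraries lay at 32.6 to 36.6 CPM in Tet2-/- and 178 to 245 CPM in WT. The first 200 bases of Spi1 had a GC content of 51.5%. No gene of these 6 lists was called in LT-HSC, ST-HSC or CLP.

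The second set offered a look at LT-HSC alone, with its own WT. Csf3r was the only member present in every one of its libraries at 37.6 CPM or more: 72.6, 94.5 and 43.5 CPM in WT, 136, 82.4 and 43.5 CPM in Sting-/- and 37.6, 148 and 124 CPM in DKO, fully overlapping. Csf1r had no count in any of the 9. Csf2ra had counts in all 9, and each of the other 7 was at 0 in at least 1 library, Csf2rb2 in all 6 of Sting-/- and DKO. Il4ra, for example, stood at 349, 23.1 and 0.141 CPM in WT. Libraries of this set had a count for 9381 to 11527 genes. LT-HSC libraries of the first set, whose table lists more genes, had one for 17768 to 18631. What part this has in the zeros and the wide spread was not tested. Csf2ra was at 60.8, 11.3 and 77.2 CPM in WT, 0.0384, 28.5 and 10.9 CPM in Sting-/- and 1.70, 2.46 and 1.14 CPM in DKO, so that DKO and WT did not overlap. Sums over marker lists of other cells moved with DKO. The 5 dendritic cell markers summed to 2245 to 3681 CPM in DKO, 891 to 1453 CPM in WT and 969 to 1627 CPM in Sting-/-. T and NK cell markers summed to 108 to 130 CPM in DKO against 47.1 to 60.4 CPM in WT, and mast cell and basophil markers to 16.4 to 71.1 CPM against 96.0 to 208 CPM. These groups did not overlap with DKO. In the last 2 lists Sting-/- did overlap with DKO (37.7 to 114 CPM and 44.1 to 150 CPM). The 7 MEP markers summed to 106 to 122 CPM in DKO and 29.2 to 92.6 CPM in Sting-/-, without overlap, and to 107 to 198 CPM in WT, with overlap. Many genes of these lists were absent, so the sums do not show that such cells were present. Cd3e, Cd3g, Cd3d and Il2rb of the 6 T and NK cell markers had no count in any library of this set. The same held for Siglech and Itgax of the dendritic cell markers. Ms4a2 had no count in the set, and Fcer1a none in DKO and Sting-/-. What part these marker shifts have in the differences of Csf2ra, Junb and Nfkbia was not tested.

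No member was called in any comparison of the second set: 0 of 6 tested for Sting-/- against WT (0% of all genes, with 469 of 9968 genes at an unadjusted p below 0.05 and 262 called by DESeq2), 0 of 5 for DKO against WT (0.657%) and 0 of 4 for DKO against Sting-/- (0.159%). Of the members tested, only Csf2ra in DKO against WT had an unadjusted p below 0.05 (log2 fold change -4.85, SE 1.58, p = 0.0153, adjusted p = 0.22; exact permutation p = 0.1, the smallest that 3 against 3 allows), where 1289 of 9744 genes did. DESeq2 called it (-4.87, adjusted p = 0.000406), among 830 of 9744 genes in place of 64, and called 637 genes in DKO against Sting-/- in place of 15. The 3 WT libraries of this set had Xist at 89.7 to 240 CPM, while the Sting-/- and DKO libraries had Xist at or below 15.5 CPM, so sex and genotype cannot be told apart in the comparisons with WT. The Y-linked Eif2s3y was at 157 to 214 CPM in Sting-/-, 276 to 314 CPM in DKO and at most 0.234 CPM in WT, so sex did not divide DKO from Sting-/-. In the first set all 46 libraries had Xist at 582 CPM or more. Of the feedback and target genes, Junb (-6.40, adjusted p = 0.00853) and Nfkbia (-3.37, 0.0132) were lower in DKO than in WT, and both were lower in DKO than in Sting-/- (-4.71, 0.0475, and -4.22, 0.0196). The calls of Junb and Nfkbia in DKO against Sting-/- ended with the replicate block and without any 1 Sting-/- or DKO library (adjusted p = 0.0945 to 0.191 for Junb and 0.0821 to 0.12 for Nfkbia without a library), and that of Junb with relative log expression (RLE) scaling too (0.0534). With the block or a library left out, 0 genes were called in all, in place of 15, with 527 to 840 genes at an unadjusted p below 0.05. In DKO against WT, the call of Junb ended without WT replicate 3 (0.063) or DKO replicate 3 (0.0602), and that of Nfkbia without any 1 WT library (0.0769 to 0.0846) and without DKO replicate 1 (0.0607) or 3 (0.0541). Calls over all genes there numbered 2 to 41 without 1 WT or DKO library, in place of 64.

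Among 11301 other genes, those whose log2 CPM rose and fell most like each receptor over the 46 libraries were Mpo for Csf1r (Pearson r = 0.93), Vav1 for Csf2ra (0.89), Git2 for Csf2rb (0.81), Ms4a6c for Csf2rb2 (0.81), Ugt1a7c for Csf3r (0.89), Tcirg1 for Il3ra (0.81), Pkm for Il6ra (0.87), Sla for Il6st (0.89), Gria3 for Il4ra (0.89) and Ikzf2 for Il1r1 (0.83). Clec12a, a myeloid lectin gene, was also close to Csf1r (0.91), and Rac2, a GTPase gene of blood cells, to Il6st (0.88). These libraries, those labelled CLP included, share 6 sorted populations, so the values describe the common pattern of levels and carry no test. Among the members themselves, the closest pair was Csf1r and Il3ra (r = 0.76) and the most distant Csf3r and Il1r1 (r = 0.12).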

How the data were processed

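The deposited values were raw counts of sequencing reads per gene, from SMART-Seq2 libraries of sorted cells. Per the labels and the submitters' processing notes, the authors trimmed reads with Trim Galore 0.6.7, aligned them with HISAT2 and tested counts with DESeq2. The notes list mm10 and mm9 as builds. The study's methods name mm10 alone and an earlier version of Trim Galore, and the counting tool is not given in the sources used here. The first table held 46 libraries and 55421 genes, of which 55154 had an ID in GENCODE M21, which gave coordinates and exon lengths on GRCm38. The second held 9 libraries and 35975 genes. The tables were tested separately, because each has its own WT.

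The quasi-likelihood test of edgeR 4.0.16 (R 4.3.3) was applied to the counts, with TMM scaling, its filter on low counts and Benjamini-Hochberg adjustment over all genes tested. A call needed an adjusted p below 0.05 and a 2-fold change. Genotypes were compared in fits of the 2 groups concerned, and lineage pairs, the mean difference and the interaction in 1 fit of 12 groups. Single genes were also given exact two-sided permutation tests of the libraries on log2(CPM + 0.5). CPM used the total counts of a library times its TMM factor, and the library total alone as an alternative added after seeing the data. A gene at 0 was set at 3 counts per library for a lower bound of a fold. Alternatives were DESeq2 1.42.0, limma 3.58.1 (voom), other scaling, no filter, a replicate block, shared fits, both beta chains counted as 1 gene, and each replicate left out. A correction for GC content and fits without CLP libraries were added after seeing the data. The tests were run on simulated data first. The 10 members and the lists were chosen with earlier results of these data known. Named from each list were up to 3 called genes with the largest change or, with none called, the 2 smallest p-values, and, for each member, the genes of highest correlation. No 2 libraries held identical values. Correlations of same-numbered libraries were all over 0.1 in 3 pairs of populations: Tet2-/- CMP with GMP (0.157 to 0.362), Tet2-/- CMP with MEP (0.175 to 0.28) and WT LT-HSC with ST-HSC (0.115 to 0.142). Libraries of different numbers were not correlated for comparison, so these values cannot settle whether the numbers pair libraries. No label states such a pairing.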

Additional observations from a re-analysis of the deposited data

Results flagged for a closer look

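A library was singled out when the gap between the highest or lowest of 4 values and its neighbour took more of the group's range than Dixon's 95% critical value. Of 83 groups of 4 libraries with a mean of at least 1 CPM, 9 held such a value, where chance gives about 1 in 20.

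In the libraries labelled CLP, Csf2rb was at 89.6 CPM in Tet2-/- replicate 3 and at most 8.46 CPM in the other 3. Csf3r was at 4.03 CPM in WT replicate 5 and at 0 in the others. Il6ra was at 51.6 CPM in WT replicate 2, the next being 6.02 CPM. Il6st was at 30.1 CPM in Tet2-/- replicate 4, with the others at 56.8 to 59.4 CPM.

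In Tet2-/- CMP, Csf1r was at 23.1 CPM in replicate 3 (the next 10.5), Csf3r at 26.3 CPM in replicate 5 (the others 44.6 to 48.4) and Il6ra at 5.09 CPM in replicate 2 (the next 1.95). Without that replicate, the Il6ra difference from WT was -2.92 on the log2 scale (adjusted p = 0.00555, edgeR). Il4ra was at 13.2 CPM in WT GMP replicate 4, with the others at 24.8 to 26.2 CPM, and Csf2ra at 2.37 CPM in Tet2-/- MEP replicate 3, with the others at most 1.09 CPM.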

How the results depend on the processing

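Each group held 3 or 4 libraries, and the fit of all 46 takes those labelled CLP into its 1 spread. None of the 3 genotype calls was left with all 46 libraries, or all but CLP, in 1 fit. Each of these fits gave 1 other call in place of the 3 (Csf3r in CLP, 4.80, adjusted p = 0.0166, edgeR, and Il6st in MEP, 2.69, 0.0396, among 1477 of 22360 and 661 of 21736 genes called). By construction these fits share 1 spread: Il6ra in GMP kept its size (-2.35 and -2.33) with adjusted p = 0.995 and 0.278, and Csf2ra in GMP (-1.48 and -1.46) with 0.294 and 0.0703. The lineage pairs had 23 calls in WT and 20 in Tet2-/-. Leaving out each replicate gave totals of 2 to 3 genotype calls, 16 to 19 WT and 14 to 21 Tet2-/- lineage calls. Calls over all genes moved in those fits too. Between genotypes they numbered 590 to 725 in CMP, in place of 734, and 608 to 734 in GMP, in place of 723. For GMP against CMP they numbered 131 to 234 in WT, in place of 440, and 291 to 689 in Tet2-/-, in place of 806. DESeq2 gave 35 and 31 lineage calls, with 1135 to 6580 of 22360 genes called per pair in WT (edgeR 21 to 4475) and 1134 to 6106 in Tet2-/- (41 to 4373), and over the 5 pairs with no CLP, without the CLP libraries 27 (WT) and 28 (Tet2-/-) came in place of 16 and 16. For the mean difference, 0 calls became 1 by DESeq2 (Csf1r) and 0 to 1 with a replicate left out (1 without WT replicate 5). For the interaction, 0 became 2 by DESeq2, 3 at an unadjusted p below 0.05 (3128 of 22360 genes over all), and 0 to 1 with a replicate left out (1 without WT replicate 5). In the second set 0 became 1 by DESeq2, and 0 to 0 with a replicate left out. By the library total in place of the TMM size, 8 members rather than 6 had their highest WT mean in GMP. None of the values recomputed under these alternatives, mostly those of called members, changed sign. Over all genes DESeq2 called 145 in place of 4 in LT-HSC, 187 for 3 in ST-HSC, 119 for 1 in CLP, 2563 for 781 for the mean difference and 1307 for 592 for the interaction. The causes were not tested.

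Between genotypes, 3 of 22 correlations of libraries of the same number (-0.08 to 0.21) exceeded 0.1, with no comparison to libraries of different numbers. Between populations 14 of 51 did in WT and 30 of 60 in Tet2-/-, and all of a pair in 3 pairs of populations. There the replicate block ended the Tet2-/- call of Il6st in MEP against CMP and no other call. Elsewhere it ended the calls of Il6ra in CMP between genotypes (-2.46, adjusted p = 0.0731, edgeR), Csf1r in WT CLP against ST-HSC (3.55, 0.122) and Csf1r in Tet2-/- ST-HSC against LT-HSC (6.55, 0.0512). It left 2 genotype calls and 22 and 18 lineage calls. Over all genes, the block called 527 in place of 734 in CMP between genotypes, 658 in place of 723 in GMP and 526 in place of 651 in MEP. Per lineage pair it called 20 to 4004 genes in WT (21 to 4475 without it) and 32 to 3553 in Tet2-/- (41 to 4373).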
